A study of Mus musculus with 4 samples.

Results

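The BCL-2 family genes described here are 10 genes that set whether a cell survives or dies through its mitochondria: the anti-apoptotic Bcl2, Bcl2l1 and Mcl1, and the pro-apoptotic Bax, Bak1, Bcl2l11, Bid, Bbc3, Pmaip1 and Bmf. An accessible region belonged to the set when none of the other protein-coding genes had a span closer to it than one of these 10 did, with overlaps settled by the nearer gene end. By this rule 151 of 91266 regions were members, 67 at the 3 anti-apoptotic genes and 84 at the 7 pro-apoptotic genes. Of the 10 genes, 4 had a region in the authors' lists of differing regions, against 20.1% of the 16387 protein-coding genes with at least 1 region, which had a median of 3 regions each. Counted by region the share was near the background, 5.96% of the family's regions against 5.61% of all. Bcl2 had 3 regions in the down list, all within the gene, and Bcl2l11, Pmaip1 and Mcl1 had 3, 2 and 1 regions in the up list, all outside these genes. Most regions of each gene lay likewise, within Bcl2 and outside Bcl2l11, Pmaip1 and Mcl1.

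BCL-2, BCL-XL (the long product of Bcl2l1) and MCL-1 hold cells alive by binding and restraining their pro-apoptotic relatives. BAX and BAK, the products of Bax and Bak1, are the effectors that open pores in the outer mitochondrial membrane and release cytochrome c. The BH3-only proteins BIM (Bcl2l11), BID, PUMA (Bbc3), NOXA (Pmaip1) and BMF are the triggers that neutralise the guardians or activate the effectors. NK cells, innate lymphocytes that kill infected and transformed cells, need interleukin-15 (IL-15) to survive, and the cytokine is known to act in part by sustaining MCL-1 and limiting BIM.

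The study compared open chromatin between doses of IL-15 by ATAC-seq, in which a transposase cuts and tags DNA that is not packed into nucleosomes. Wild-type C57BL/6 NK cells of the spleen were cultured for 72 h in a high dose (HD IL-15, 2 samples) or a low dose (LD IL-15, 2 samples), with IL-15 present in both groups and no concentration given in the labels. The 3 deposited tables are lists for the series as a whole, with 3845 regions in the up list and 1275 in the down list. They hold no value per sample, so that depth is unknown, the spread between replicates cannot be measured and no value below carries a replicate error. The reference dose of the lists is not given in the sources used here, and neither list is assigned to a dose. The labelled cell type was checked by regions at a start site, over the marker genes with a promoter window in the reference. All 7 NK cell genes had one, against 0 of 3 T cell genes (Cd3e, Cd3d and Cd3g), 0 of 1 B cell gene (Cd79a) and 1 of 2 myeloid genes (Itgam, which NK cells also express, and not Lyz2). Regions anywhere within the gene separated the types less: 8 of 8 NK cell genes had one, as did 3 of 3 T cell genes, 0 of 2 B cell genes (Cd79a and Ms4a1) and 2 of 3 myeloid genes (Itgam and Csf1r).

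**Figure D1:**
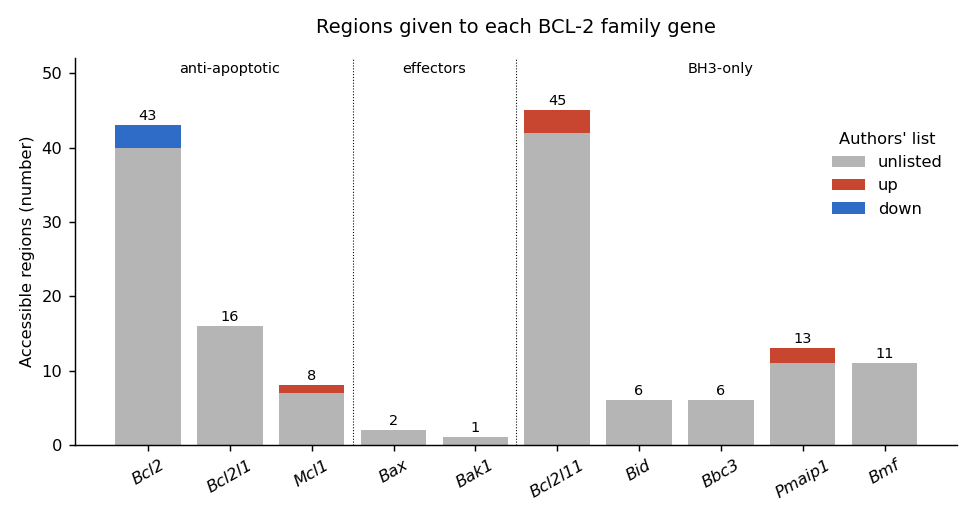
Number of accessible regions (vertical axis) whose nearest protein-coding gene was each of the 10 BCL-2 family genes, coloured by the authors' list. Bcl2 with 43 and Bcl2l11 with 45 regions stand above the rest, Bcl2 holds the 3 down regions, and the 6 up regions belong to Bcl2l11, Pmaip1 and Mcl1.

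The share of family regions in either list was close to that of the whole series. In the up list were 6 of the 151 regions, or 3.97% (95% Wilson interval 1.83 to 8.40%), against 4.21% of all regions. In the down list were 3, or 1.99% (0.678 to 5.68%), against 1.40% of all regions. Either list held 9, or 5.96%, against 5.61%. The intervals cover counting error only and take regions as independent, which neighbouring regions are not. By gene, 3 of 10 had an up region, against 16.1% of the 16387 genes with at least 1 region, and 1 of 10 had a down region, against 5.39%. The median gene had 3 regions (interquartile range 2 to 6), a number that all of these genes but Bax and Bak1 exceeded, and Bcl2 and Bcl2l11 together held 88 of the 151, or 58.3%.

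Bcl2 is the founding survival gene of the family, transcribed from the minus strand at chr1:106538176-106714290. Its 43 regions ranged from 150 to 1157 bp, with a median of 474 bp, and 37 of them lay within the 176 kb gene. The widest, chr1:106713615-106714771, covered the start site and was unlisted. The down regions lay at 3 separate places in the gene. The first along the gene, chr1:106695667-106696140, was 474 bp wide and began 18.2 kb downstream of the start. The second, chr1:106606160-106606471, was 312 bp wide, lay 107.8 kb downstream, and also fell within Gm37053, an lncRNA gene with 3 regions. The third, chr1:106561952-106562593, was 642 bp wide and lay 151.7 kb downstream, 23.8 kb before the far end of the gene. None of them was at the start site or at the end of the gene. Each stood among unlisted regions, the third with unlisted neighbours 162 bp and 455 bp away. Bcl2 had no region in the up list. Among 57 other genes with 39 to 47 regions, 9 (15.8%) had at least 3 down regions and 24 had no up region, so that neither count set Bcl2 apart from genes of its size. The RefSeq gene table used here gives spans without exons, and exonic, intronic and UTR positions were not annotated.

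Bcl2l1, which encodes BCL-XL, had 16 regions, all within the gene at chr2:152758732-152833803. Their widths ran from 151 to 1603 bp with a median of 590 bp, and 0 were in either list. The widest, chr2:152830294-152831896, overlapped the promoter windows of 2 of the 3 RefSeq starts. The nearest listed regions on that stretch of chromosome 2 belonged to other genes: 4 up regions within 250 kb were given to Mylk2 and Dusp15.

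Mcl1 encodes a short-lived survival protein on which NK cells depend. Its gene is small, at chr3:95656944-95663179, and 8 regions were given to it, only 1 of them within the gene. That region, chr3:95658344-95659878, was the second widest of the whole family at 1535 bp, covered the start site and was unlisted. The up region of Mcl1, chr3:95645332-95645791, was 460 bp wide and lay 11.2 kb outside the gene, 12.9 kb upstream of the start. It was the outermost region given to Mcl1 on that side, and the next one belonged to Ensa, whose gene ended 24.8 kb from Mcl1. Of 517 other genes with 8 regions, 142 (27.5%) had at least 1 up region.

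The effectors had the fewest regions, and none was listed. Bax, at chr7:45461695-45466903, had 2: chr7:45466323-45467217 (895 bp) over its start site and chr7:45460911-45461298 (388 bp) 0.397 kb beyond its other end. Bak1, at chr17:27019812-27028627, had a single region, chr17:27027288-27028801, 1514 bp wide and over the start site. Genes crowd both loci: the positions nearest to Bax spanned 9.20 kb and those nearest to Bak1 8.90 kb, against 251.1 kb for Bcl2. An up region of 332 bp, chr17:27038285-27038616, lay 9.66 kb from Bak1 but was closer to Ggnbp1 and is not counted here.

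Bcl2l11 encodes BIM, the BH3-only protein most closely tied to cytokine withdrawal in lymphocytes. It lies on the plus strand at chr2:128126038-128162547, and its 45 regions were the largest number in the family. Only 10 lay within the gene. The other 35 lay beyond its downstream end, 27 of them more than 50 kb and 20 more than 100 kb away, in a gap of 428.7 kb before the next protein-coding gene, Spdye4c. The 3 up regions were all in that gap. A pair, chr2:128226474-128227146 (673 bp) and chr2:128229786-128230204 (419 bp), lay 63.9 and 67.2 kb beyond the gene, separated by 2639 bp with no other region between them. The third, chr2:128333466-128333930 (465 bp), lay 170.9 kb beyond it and within Morrbid. Morrbid is a long noncoding RNA gene known to restrain Bcl2l11 in short-lived myeloid cells. Its span, chr2:128298663-128429351, held 32 regions, of which 1 was up and 0 were down. Only 16 of the 32 were given to Bcl2l11, and the other 16 were closer to Spdye4c and are not counted for the family.

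Within the Bcl2l11 gene itself, neither list held a region. The start-site regions, chr2:128125556-128126161 (606 bp) and chr2:128127136-128128195 (1060 bp), were unlisted, as was the widest one, chr2:128152322-128153823 (1502 bp), inside the gene. Among 54 other genes with 41 to 49 regions, 17 (31.5%) had at least 3 up regions. The assignment of the distal regions rests on the rule. The farthest region given to Bcl2l11 lay 211.5 kb away, and the next one, 217.1 kb from Bcl2l11 and 211.3 kb from Spdye4c, was given to the latter. When lncRNA and other noncoding genes also competed for regions, the pair went to Gm14009, 21.2 and 24.5 kb away, and the third to Morrbid, which left Bcl2l11 with 11 regions and no listed one. Contact between these regions and any promoter was not measured.

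Pmaip1 encodes NOXA, which binds MCL-1 and promotes its removal. The gene, at chr18:66458604-66465558, sits in a sparse stretch, 166.8 kb from Ccbe1 and 392.1 kb from Mc4r. It had 13 regions, 1 within the gene and 12 outside. A region of 1337 bp, chr18:66457916-66459252, covered the lower-coordinate end of the gene and was unlisted. Both up regions lay on that same side. One, chr18:66453203-66453546 (344 bp), was 5.06 kb from the gene, and the other, chr18:66394095-66394409 (315 bp), was 64.2 kb away and the outermost region on that side. Between them lay 3 unlisted regions of 155 to 633 bp. When noncoding genes and pseudogenes also competed, the farther up region went to the pseudogene Gm20294, 22.7 kb away, which left Pmaip1 with 1 up region, and both were narrower than the median region of the series. The widest region of Pmaip1, chr18:66470418-66471911 (1494 bp), was unlisted and lay 4.86 kb beyond the other end of the gene. Of 570 other genes with 12 to 14 regions, 86 (15.1%) had at least 2 up regions.

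**Figure D2:**
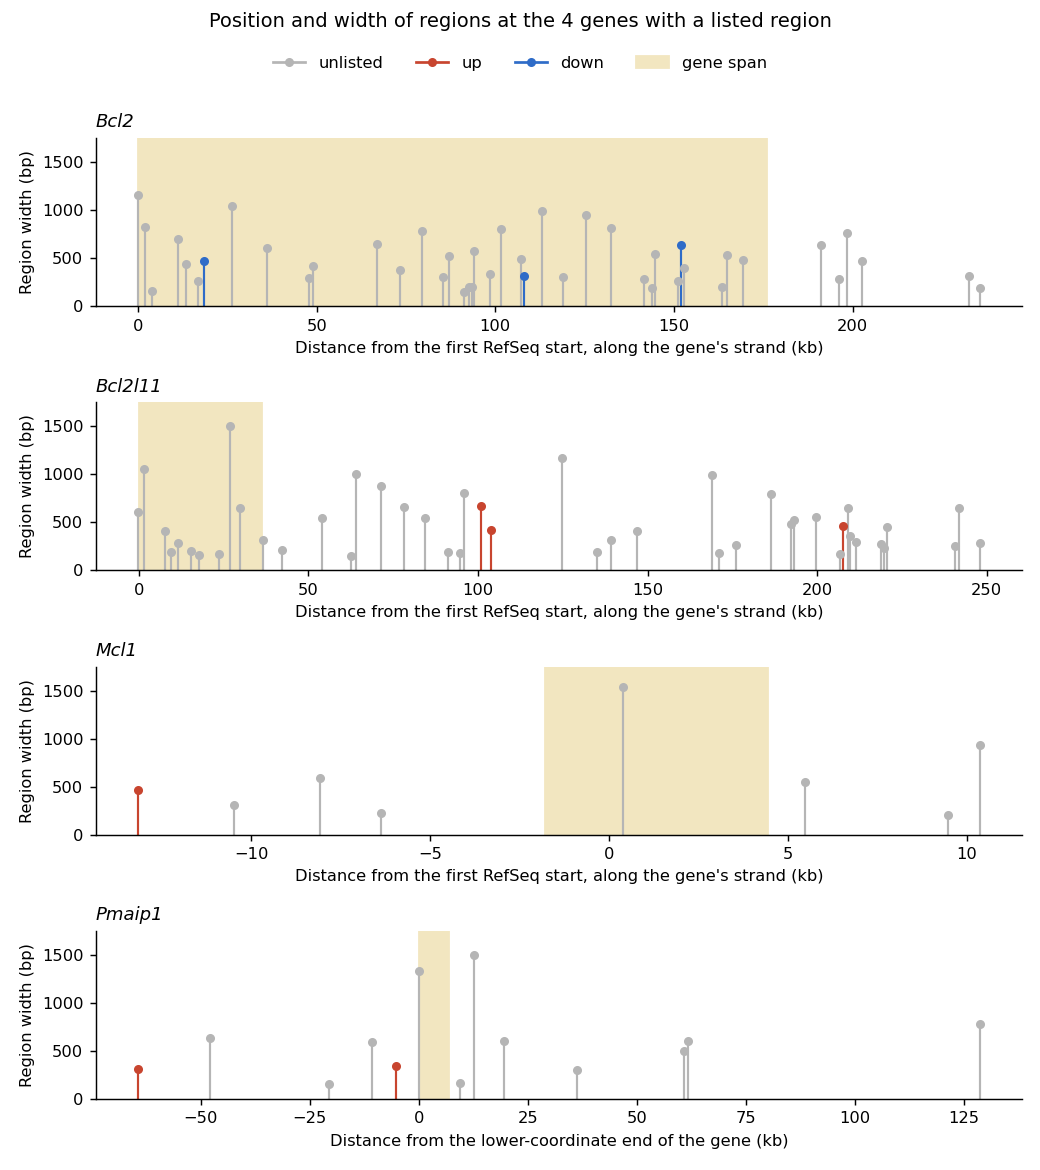
Position (horizontal axis, kb) and width (vertical axis, bp) of each region given to Bcl2, Bcl2l11, Mcl1 and Pmaip1, the 4 genes with a listed region. Shading marks the gene span, and grey, red and blue mark unlisted, up and down regions. The blue regions of Bcl2 lie inside the shading 18.2 to 151.7 kb from the start, and every red region lies outside the shading of its gene. Most grey regions also lie inside the shading at Bcl2 and outside it at Bcl2l11, Mcl1 and Pmaip1.

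The remaining BH3-only genes had no listed region. BID, which caspase-8 cleaves to link death receptors to mitochondria, is encoded at chr6:120893119-120917062, and its 6 regions of 173 to 1016 bp were all within the gene, the widest, chr6:120916410-120917425, over the start site. Bbc3, whose product PUMA is a classical p53 target, had 5 of its 6 regions within the gene at chr7:16308398-16318334, between 350 and 1029 bp wide. Its start-site regions were chr7:16309272-16309686 (415 bp) and chr7:16310000-16310423 (424 bp), and its widest was chr7:16312726-16313754 (1029 bp). Bmf, at chr2:118528757-118549686, had 11 regions with the lowest median width of the family, 227 bp, and none over 800 bp. Its start-site regions were chr2:118544225-118544625 (401 bp), chr2:118547564-118547744 (181 bp) and chr2:118549426-118549988 (563 bp). The widest, chr2:118554284-118555065 (782 bp), lay 4.60 kb outside the gene. Together with Bcl2l1, Bax and Bak1 these made 6 genes and 42 regions without a listed one. Over the series only 20.1% of genes with a region had a listed one, and 5.61% of all regions were listed. Few listed regions would thus fall among 42 at that rate. Genes of like number were compared only for the 4 genes with a listed region.

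Of the listed regions of anti-apoptotic genes 3 of 4 were down, and all 5 of the pro-apoptotic genes were up, where 75.1% of all 5120 listed regions of the series were up and 24.9% down. Of the 67 anti-apoptotic regions, 1 was up (1.49%, interval 0.264 to 7.98%) and 3 were down (4.48%, 1.53 to 12.4%), against 4.21% and 1.40% of all regions. Of the 84 pro-apoptotic regions, 5 were up (5.95%, 2.57 to 13.2%). None of the 84 was down, for which the Wilson interval reaches 4.37% and a limit of 3 counts gives 3.57%. Either list held 5.97% and 5.95%, respectively. The intervals of the groups overlapped for both lists, and each rested on few genes. Without Bcl2 the anti-apoptotic genes had 1 up and 0 down of 24 regions, and without Bcl2l11 the pro-apoptotic genes had 2 up and 0 down of 39. The contrast was not tested, because regions of 1 gene are not replicates.

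**Figure D3:**
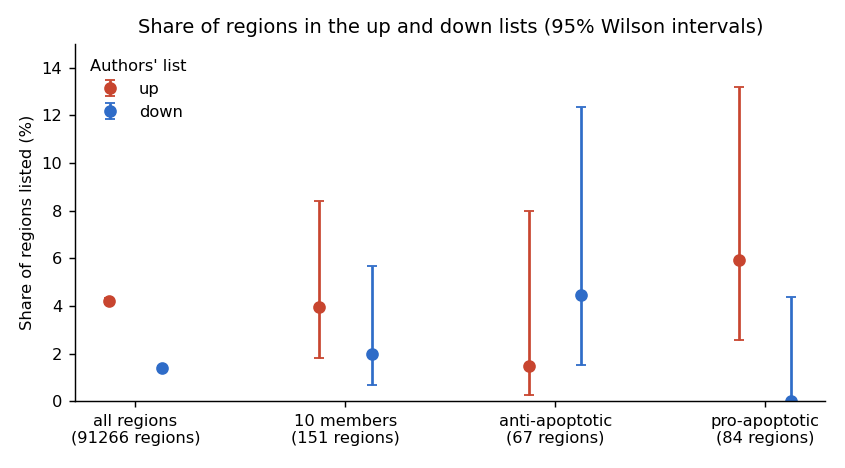
Share of regions (vertical axis, %) in the up list (red) and the down list (blue) for all regions, the 10 genes, and the anti-apoptotic and pro-apoptotic genes, with 95% Wilson intervals for counting error. The intervals of anti-apoptotic and pro-apoptotic genes overlap for both lists, and all pro-apoptotic listed regions are up.

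Position relative to the genes was compared next. Within the assigned gene lay 54 of 67 anti-apoptotic regions (80.6%) and 30 of 84 pro-apoptotic regions (35.7%), against 61.1% of all regions. More than 50 kb from the gene lay 2.99% and 36.9%, against 10.98% of all regions. Bcl2 alone contributed 37 of the 54 regions within its 176 kb span, and Bcl2l11 27 of the 31 distant pro-apoptotic ones. All 6 up regions of the family lay outside their assigned protein-coding gene, at 5.06 to 170.9 kb (1 of them within the lncRNA gene Morrbid), while 49.5% of all up regions lay within their nearest gene. All 3 down regions lay within Bcl2, and 59.6% of all down regions lay within their nearest gene. Most regions of the same genes were placed alike, listed or not. Outside the gene lay 35 of 45 Bcl2l11, 12 of 13 Pmaip1 and 7 of 8 Mcl1 regions. Within Bcl2 lay 37 of its 43 regions. No listed family region lay within 1000 bp of a gene end, where 5.31% of all up and 7.45% of all down regions were found.

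The start sites of the family were open, and none of their regions was listed. The RefSeq promoter table, build GRCm38.p6, gave windows from 250 bases before to 50 bases after a start for 9 of the 10 genes, all but Pmaip1. A window was counted when a region overlapped it by at least 1 base. All 9 genes had such a window, against 55.8% of the 17492 protein-coding genes in the table. Of the 16 windows 15 were overlapped, against 54.0% of all windows. In these 15, regions took in from 38 to all 250 of the bases before the start. The exception was the start of Bcl2l1 at position 152828489. The 13 regions over these windows had a median width of 895 bp, and the other 138 regions of 427 bp. Over starts of all protein-coding genes the median was 959 bp, and 0.707% of those 9478 regions were up and 0.232% down. A count of 0 of 13 is therefore near the background. In 6 of the 10 genes the widest region was one over a start.

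The sequence before these starts ranged from GC-rich to ordinary. In 7 of the genes the 250 bases before the outermost start in the table lay wholly within an unlisted region. Of these, 3 are shown, chosen after their G and C content was seen, to set a GC-rich stretch beside the 2 lowest. They are the 250 bases before the start of Bcl2 (chr1:106714291-106714540, minus strand), Bax (chr7:45466899-45467148, minus strand) and Bmf (chr2:118549687-118549936, minus strand), from RefSeq, GRCm38.p6. Each is written 5′ to 3′, with capitals for matches to the searched motifs: GC boxes in Bcl2, GC boxes and an E-box in Bax, CCAAT boxes in Bmf.
Bcl2: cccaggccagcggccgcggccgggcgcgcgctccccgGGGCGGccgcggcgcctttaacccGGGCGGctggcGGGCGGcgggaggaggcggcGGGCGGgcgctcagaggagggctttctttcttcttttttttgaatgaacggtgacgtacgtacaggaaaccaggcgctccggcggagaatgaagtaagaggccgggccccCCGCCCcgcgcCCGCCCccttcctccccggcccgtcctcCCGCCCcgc
Bax: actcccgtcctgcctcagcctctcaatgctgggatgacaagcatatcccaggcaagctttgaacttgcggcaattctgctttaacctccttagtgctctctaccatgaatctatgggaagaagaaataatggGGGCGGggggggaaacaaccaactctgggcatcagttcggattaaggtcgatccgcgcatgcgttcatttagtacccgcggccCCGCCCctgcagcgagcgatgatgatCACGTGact
Bmf: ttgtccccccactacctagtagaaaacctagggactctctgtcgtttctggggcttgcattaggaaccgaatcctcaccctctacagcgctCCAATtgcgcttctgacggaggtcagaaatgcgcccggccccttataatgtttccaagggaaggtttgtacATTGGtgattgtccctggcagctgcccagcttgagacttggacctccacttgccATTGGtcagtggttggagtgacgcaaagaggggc

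Their G and C content was 74.8% for Bcl2, 54.0% for Bax and 54.0% for Bmf, against a median of 55.6% over all 21263 windows of protein-coding genes and of 61.0% over the 16 family windows. The 4 qualifying stretches not shown, of Mcl1, Bcl2l11, Bid and Bbc3, had 63.6 to 76.4%. The Bcl2 stretch held 7 GC boxes (GGGCGG on either strand), and the Bmf stretch held 3 CCAAT boxes (ATTGG) and no GC box. A GC box was found in 9 of the 16 windows (42.6% of all windows), and a CCAAT box in 5 (35.4%). The E-box CACGTG was in 2 (6.63%) and the RUNX motif TGTGGT in 2 (12.4%). The TATA box TATAAA (11.6%), the STAT motif TTCNNNGAA (6.58%), the ETS motif ACTTCCG (6.37%) and the AP-1 motif TGANTCA (6.13%) were in none. Both strands were searched in the 250 bases before each start, matches of different motifs could overlap, and windows of 1 gene can overlap too. A match describes letters and not binding.

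FOXO factors, known activators of Bcl2l11 and Bbc3, have the core motif GTAAACA, which 2.62% of all windows held. Of the 16 family windows 2 held it, 1 at Bcl2l11 and 1 at Bbc3. Both matches lay under unlisted start-site regions, and they are shown with 11 bases on each side, in capitals, together with the GC box 20 bases before the start of Mcl1. Positions are chr2:128125800-128125828 for Bcl2l11, chr7:16310083-16310111 for Bbc3 and chr3:95658690-95658717 for Mcl1, all written along the plus strand. The capitals at Bbc3 and Mcl1 are the reverse complements of GTAAACA and GGGCGG, so these matches are on the minus strand.
Bcl2l11: aagacactaggGTAAACAcgccggggtgg
Bbc3: tctggcgggttTGTTTACaaacaatgggg
Mcl1: tccggaaacgcCCGCCCctttccccttt

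Within single genes widths ran from narrow to wide, from 150 to 1502 bp at Bcl2l11. Family regions had a median of 452 bp (interquartile range 268 to 653 bp), against 400 bp (252 to 653 bp) for all regions. The medians were 474 bp for anti-apoptotic and 417 bp for pro-apoptotic genes. Listed regions were of middle width, the up ones between 315 and 673 bp and the down ones between 312 and 642 bp. The regions of the family over 1000 bp were all unlisted, but they were few. The share listed among all regions of that width was not computed. Over the series, up regions had a median of 453 bp and down regions of 537 bp, with maxima of 1726 and 2004 bp.

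**Figure D4:**
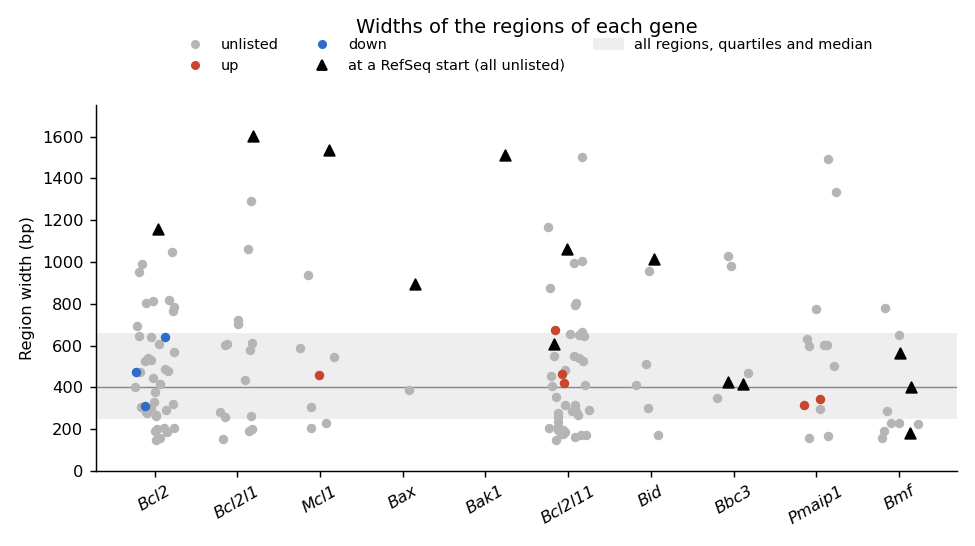
Width (vertical axis, bp) of each region by gene, with black triangles for regions over a RefSeq promoter window and colours for the authors' lists; Pmaip1 has no window in the table. The grey band and line give the quartiles (252 and 653 bp) and median (400 bp) of all regions, and the 9 listed regions fall between 312 and 673 bp, below the widest start-site regions.

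Open regions were dense around most family genes. The stretch of positions nearest to each gene held 17.1 regions per 100 kb at Bcl2, 20.3 at Bcl2l1 and 31.7 at Mcl1. Pro-apoptotic genes ranged from 4.54 at Pmaip1 and 11.2 at Bak1 to 27.8 at Bbc3, with 17.9 at Bcl2l11. Over 21682 protein-coding genes the median was 4.88 (interquartile range 0.197 to 10.4). Pmaip1 was thus below the median gene, and the other 9 were above the upper quartile. Regions of other genes within 250 kb of the family genes were listed at similar rates to the whole series: 15 of 399 were up (3.76%) and 7 were down (1.75%).

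A list of 31 further cell death genes was looked at, of which 28 had at least 1 region. It held genes of the mitochondrial death pathway, the death-receptor genes Casp8, Fadd and Cflar, and 4 regulators of BH3-only genes. Of the 183 regions of the whole list, 4 were up (2.19%) and 6 were down (3.28%), against 4.21% and 1.40% of all regions. The remaining survival genes of the family had 1 up region among 8, chr9:114329747-114330280 within Bcl2a1c, one of several near-identical copies of A1 whose reads may not be separable. The 8 further family genes, among them Bad, Bik, Hrk and Bok, had 0 listed of 31 regions. Among the apoptosome, caspase and inhibitor genes, up regions were given to Cflar (2 of 12) and Apaf1 (1 of 9). Cflar encodes the caspase-8 inhibitor c-FLIP and Apaf1 the scaffold of the apoptosome. Down regions were given to Cycs (3 of 13), which encodes cytochrome c, all 36.5 to 41.9 kb outside the gene, and to Birc3 (1 of 7), which encodes an inhibitor of apoptosis. The FOXO genes had 1 down region each: Foxo3 1 of 17, within the gene, and Foxo1 1 of 54, 297.6 kb outside it.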

How the data were processed

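ATAC-seq regions of 4 samples (2 per dose) were used as deposited by the authors: a list of all regions, with their widths in bp, and an up and a down list of positions. BWA, ArchR, MACS2 and HOMER 4.11.1 and the build mm10 are named in the submitters' processing notes; their roles, the differential test, its threshold, its reference dose and whether peaks were called on pooled samples are not given in the sources used here. The planned tests of counts or normalized values were not run, because the 3 tables hold 0 columns of values per sample. Starts of all regions were raised by 1 to be 1-based, after which 3845 up and 1275 down regions matched identical coordinates.

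Each region was given to the nearest of 21900 protein-coding genes (RefSeq, GRCm38.p6, the assembly that mm10 names), ties going to the nearer gene end. Positions nearest to a gene were counted in steps of 100 bp for family genes and of 1000 bp for all genes. Genes of like size had a number of regions within 10% of the named gene's. Python 3.11.15, pandas 2.3.3, numpy 2.4.6 and scipy 1.17.1 were used, and the assignment and motif search were checked on planted positions. All 10 genes, their listed, start-site and widest regions, and pathway genes with a listed region are named. A pathway gene and a B cell marker of the original lists are not reported here and are left out of the totals. The genes, lists and motifs were chosen with earlier results of these data known.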

Additional observations from a re-analysis of the deposited data

How the results depend on the processing

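No paired analysis was possible because the tables hold no values per sample, and for the same reason the tests between doses and their alternatives (another normalization, filter or pseudocount, a left-out replicate) were not run. For 10 results, 59 alternatives were run: 38 stayed close to the reported value and 21 moved. The down counts of all genes (2 to 4) and of anti-apoptotic genes (2 to 3) stayed close to 3. The pro-apoptotic down count of 0 became 1 within 50 kb, through a region of Sae1, 47.0 kb from Bbc3.

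The up counts depended on how regions were given to genes. The up count of 6 for the family became 2 within 10 kb, 3 within 50 kb, 0 when only overlap with the gene counted and 2 with the nearest gene of any biotype. Within 10 kb and 50 kb, 1 of those counted was the region given to Ggnbp1 near Bak1, so that only 1 and 2 of the original 6 were kept. The pro-apoptotic count of 5 became 2, 2, 0 and 1 under these rules (the first 2 again with the Ggnbp1 region, so that 1 of the 5 was kept), 3 by the nearest start (where Pmaip1 has none) and 3 among regions over the median width of 400 bp. The anti-apoptotic count of 1 became 0 within 10 kb and by overlap. These rules count different stretches of DNA, and the distant up regions of Bcl2l11 were lost under the first 4.

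The number of regions moved with the same rules. For the family, 151 became 84 by overlap, 98 with any biotype and 87 over the median width. It rose to 210 within 50 kb and to 186 by the nearest start, changes counted as close. For pro-apoptotic genes, 84 became 50 within 10 kb, 30 by overlap, 42 with any biotype and 47 over the median width. It rose to 124 within 50 kb and to 114 by the nearest start. For anti-apoptotic genes, 67 became 40 over the median width. A cut at the median width of all regions removes many regions of any set. The falls over the median width therefore do not bear on how regions were given to genes. Depth is unknown, so that regions too weakly covered to be called or listed cannot be told from closed or unchanged ones.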
